A study of Bos taurus with 8 samples.

Results

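The genes described here carry cholesterol through the cell, from its synthesis to its uptake, its movement between membranes and its export. They were chosen by name as 34 genes of known function, with earlier results of these data known. Of these, 32 were among the 18871 named genes of the count table, and *STARD4* and *ABCG1* were not analysed here. Each of the 32 was counted in every clone, with no count under 19, and passed the filter on low counts, so that all 32 were among the 18339 genes tested.

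Mammalian cells build cholesterol from acetyl-CoA. In the mevalonate arm, acetyl-CoA units are joined and reduced to mevalonate, which is phosphorylated and decarboxylated to isoprenes and condensed to farnesyl diphosphate. Farnesyl diphosphate is a branch point that also feeds protein prenylation, dolichol and ubiquinone. In the later steps, farnesyl diphosphate is joined to squalene, squalene is oxidized and closed to lanosterol, and lanosterol is trimmed to cholesterol. The pathway is set by the sterol content of the endoplasmic reticulum. When sterol is low, SCAP escorts the membrane-bound factor SREBP-2, the product of *SREBF2*, to the Golgi, where it is cut and released to switch on genes of synthesis and uptake. When sterol is high, INSIG proteins hold SCAP back, and oxysterols activate the liver X receptors (LXR), which switch on export pumps. Proliferating cells and fat cells both need cholesterol for membranes, and fat cells also store it in the lipid droplet.

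The 8 RNA samples were single-cell clones grown in culture from the stromal vascular fraction (SVF) of fat of adult Angus-cross steers. The 4 IMF clones (IMF1 to IMF4) came from intramuscular fat dissected from *longissimus dorsi* muscle and the 4 SF clones (SF1 to SF4) from subcutaneous fat, with no genetic change named for either group. Each sample was 1 clone, and the clones had been chosen for fast growth, strong adipogenic potential and fibroblast-like shape, so that they stand for selected cells rather than for a depot. The study's methods place RNA extraction in growth medium with fetal bovine serum, before confluence, whereas the series description places adipogenic induction first. Which IMF and SF clones came from the same animal was not given in the sources used here.

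The clones were counted to a depth of 19654917 to 29308882 reads or read pairs on named genes. All 10 stromal and preadipocyte markers were counted, with a summed level of 24924 to 26103 CPM in IMF against 49096 to 55144 CPM in SF (2413 to 2566 CPM against 2294 to 2943 CPM without *COL1A1* and *COL1A2*), 1 of them higher in IMF (*PDGFRA*) and 4 lower (*ITGB1*, *THY1*, *COL1A1* and *COL1A2*, of which *THY1* did not pass with limma-voom). Of 8 mature adipocyte markers, *ADIPOQ*, *LEP* and *LPL* were not analysed here, *FABP4* was higher in IMF and *PPARG* lower, and the 5 analysed summed to 16.7 to 18.5 CPM against 7.86 to 13.3 CPM, or 6.97 to 9.47 CPM against 7.86 to 12.99 CPM without *FABP4*. All 8 skeletal muscle markers were higher in IMF, with a summed level of 713 to 795 CPM against 2.10 to 24.4 CPM in SF, where *MYOD1*, *MYOG* and *CKM* were at 0 counts in all 4 clones. All 8 endothelial markers were also higher in IMF (293 to 314 CPM against 2.72 to 4.35 CPM), with *KDR*, *CD93* and *SELE* at 0 counts in all SF clones. Of 10 proliferation genes, 5 were higher in IMF (*MCM2*, *MCM3*, *MCM5*, *PCNA* and *CCNB1*), the others did not pass the test, and the summed level was 1007 to 1087 CPM in IMF against 557 to 962 CPM in SF. Of 6 leukocyte markers 4 were analysed here, 1 of them higher in IMF (*CD14*), and they summed to 11.5 to 28.6 CPM in IMF against 30.4 to 53.0 CPM in SF. Most of that sum in SF was *PTPRC*, which did not pass the test (log2 ratio -1.79 ± 0.58, adjusted p = 0.0518) but did with DESeq2 and limma-voom, and the other 3 markers summed to 8.02 to 9.65 CPM in IMF against 2.81 to 5.52 CPM in SF. The part of these differences in the results below was not tested. In bulk RNA, more cells of a kind and more RNA per cell cannot be told apart.

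Most enzymes of cholesterol synthesis were higher in the IMF clones, whereas those of uptake, trafficking and efflux were lower there or did not pass the test. With edgeR's quasi-likelihood test, 19 of the 32 genes were higher in IMF at an adjusted p under 0.05 and 4 were lower, or 23 in either direction. Among all genes tested 14.4% were higher, 11.4% were lower and 25.8% were one or the other. With a log2 fold change of at least 1 as a further threshold, 15 genes were higher and 2 were lower, where 4.78% and 4.04% of all genes tested were. Of the 20 synthesis enzymes, 17 were higher and 0 were lower (0 also at an unadjusted p under 0.05 and 0 with DESeq2 or limma-voom). The log2 fold change, IMF over SF, is given below as the log2 ratio ± its standard error. Its median was 1.14 over the 20 enzymes, 0.91 over the 32 genes and -0.03 over all genes tested.

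**Figure D1:**
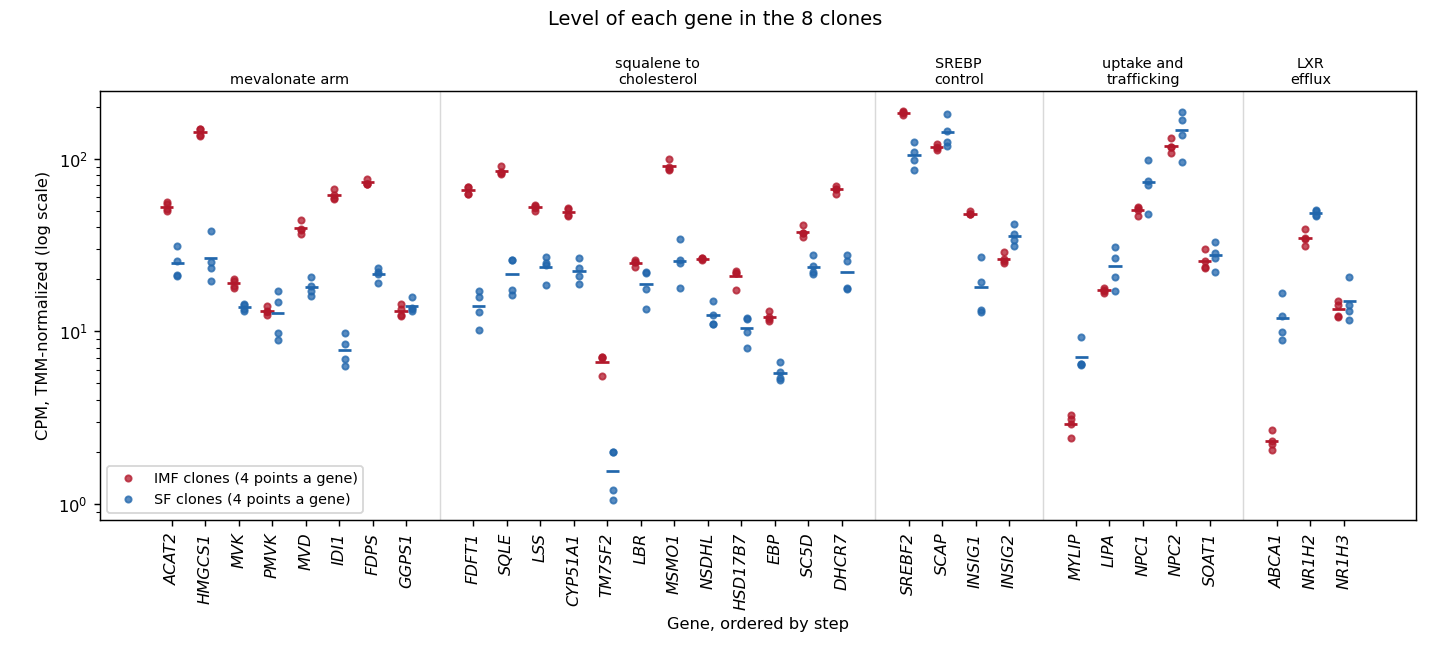
Level of each of the 32 genes in CPM (TMM-normalized, log scale) in the 4 IMF clones (red points) and the 4 SF clones (blue points), with the group mean as a bar, ordered by step. In 18 of the 20 synthesis genes every red point lies above every blue point, as in 18.0% of all genes tested, while the red and blue points overlap for *PMVK*, *GGPS1*, *SCAP*, *LIPA*, *NPC1*, *NPC2*, *SOAT1* and *NR1H3*.

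The mevalonate arm opens with *ACAT2*, an acetyl-CoA acetyltransferase, and *HMGCS1*, the HMG-CoA synthase of the cytosol. *HMGCS1* (chromosome 20, 31431132 to 31456871 in ARS-UCD2.0) was at 138, 148, 148 and 136 CPM in IMF1 to IMF4 and at 23.3, 25.2, 19.6 and 38.3 CPM in SF1 to SF4. The lowest IMF clone thus lay far above SF4, the highest SF clone. The difference was 5.36-fold (log2 ratio 2.42 ± 0.20, adjusted p = 8.81e-05). *ACAT2* was at 54.4, 55.9, 50.9 and 49.6 CPM in the IMF clones, against 31.2, 21.2, 20.9 and 25.7 CPM in the SF clones, a 2.13-fold difference without overlap (log2 ratio 1.09 ± 0.13, adjusted p = 0.000700). *ACAT2* shares bases with *TCP1* in the annotation, and *TCP1* was also higher in IMF (log2 ratio 0.40 ± 0.094, adjusted p = 0.0155), and the share of reads from the common bases counted for each is uncertain.

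Of the kinases and the decarboxylase of the arm, *MVK* and *MVD* were higher in IMF and *PMVK* did not pass the test. *MVK*, mevalonate kinase, was at 18.4, 20.1, 19.5 and 17.8 CPM in the IMF clones, against 14.3, 14.5, 13.4 and 13.1 CPM in the SF clones, which is 1.37-fold higher in IMF with no overlap (log2 ratio 0.46 ± 0.076, adjusted p = 0.00312). *MVD*, which decarboxylates mevalonate diphosphate, was at 44.04, 39.1, 38.7 and 36.6 CPM in IMF against 18.4, 16.02, 17.1 and 20.6 CPM in SF (2.20-fold, log2 ratio 1.14 ± 0.098, adjusted p = 0.000125). *PMVK*, the phosphomevalonate kinase between them, was at 12.4, 13.9, 13.2 and 12.9 CPM in IMF against 8.93, 14.8, 17.2 and 9.81 CPM in SF, so that the IMF values fell inside the range of the SF clones (log2 ratio 0.047 ± 0.21, adjusted p = 0.898).

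*IDI1*, the isomerase that interconverts the isoprene building blocks, had the largest log2 fold change of the 32 genes. *IDI1* (chromosome 13, 46325275 to 46328402) was at 61.6, 66.5, 59.4 and 58.7 CPM in the IMF clones, against 6.88, 8.41, 6.33 and 9.75 CPM in the SF clones. The groups were wide apart, with a 7.86-fold difference (log2 ratio 2.97 ± 0.14, adjusted p = 6.51e-06), and 444 of the 18339 genes tested had a log2 fold change at least as high. *FDPS* (chromosome 3, 15311071 to 15320244), the synthase of farnesyl diphosphate, was at 71.5, 76.7, 71.6 and 71.6 CPM in IMF against 21.6, 23.4, 19.2 and 21.9 CPM in SF (3.39-fold, log2 ratio 1.76 ± 0.077, adjusted p = 4.77e-06). *FDPS* lies 340 kb from *PMVK*, which did not pass the test, on chromosome 3. *GGPS1*, which extends farnesyl to geranylgeranyl diphosphate for prenylation and so leads out of the sterol route, was at 12.4, 14.3, 13.6 and 12.3 CPM in IMF against 15.9, 13.7, 13.4 and 13.1 CPM in SF. Its groups overlapped (log2 ratio -0.092 ± 0.096, adjusted p = 0.530).

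Squalene synthesis, oxidation and closure were higher in the IMF clones at each of their 3 enzymes. *FDFT1* (chromosome 8, 7591013 to 7617467), squalene synthase and the first enzyme committed to sterols, was at 68.5, 68.8, 62.6 and 62.5 CPM in IMF1 to IMF4 and 12.99, 17.1, 10.2 and 15.7 CPM in SF1 to SF4 (4.69-fold, log2 ratio 2.23 ± 0.16, adjusted p = 3.93e-05). *SQLE*, squalene epoxidase, was at 81.6, 90.4, 83.5 and 82.3 CPM in the IMF clones against 17.4, 26.03, 16.2 and 25.9 CPM in the SF clones, where SF1 and SF3 were the lower pair (3.95-fold, log2 ratio 1.98 ± 0.17, adjusted p = 0.000116). *LSS*, lanosterol synthase, was at 53.6, 52.1, 53.5 and 49.97 CPM in IMF against 27.1, 24.2, 18.5 and 25.01 CPM in SF, a smaller difference than that of the enzymes before it (2.21-fold, log2 ratio 1.14 ± 0.11, adjusted p = 0.000261). None of the 3 genes overlapped between the groups.

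Lanosterol is demethylated by *CYP51A1*, *MSMO1*, *NSDHL* and *HSD17B7*. *MSMO1*, the sterol methyl oxidase, was at 87.7, 99.7, 88.9 and 86.1 CPM in the IMF clones, against 24.9, 25.7, 17.9 and 34.2 CPM in the SF clones, with SF4 the highest and SF3 the lowest of its group (3.53-fold, log2 ratio 1.82 ± 0.18, adjusted p = 0.000220). *CYP51A1*, the lanosterol demethylase, was at 47.5, 51.3, 51.6 and 46.6 CPM in IMF against 21.04, 23.2, 18.9 and 26.7 CPM in SF (2.20-fold, log2 ratio 1.13 ± 0.11, adjusted p = 0.000211). The dehydrogenase *NSDHL* differed to a like extent as *CYP51A1*. It was at 25.9, 26.6, 26.6 and 26.4 CPM in IMF, the narrowest spread of these genes, and 10.98, 12.5, 10.997 and 15.04 CPM in SF (2.13-fold, log2 ratio 1.09 ± 0.11, adjusted p = 0.000254). The next enzyme, *HSD17B7*, a ketosteroid reductase, was at 22.2, 21.9, 21.9 and 17.3 CPM in IMF against 8.01, 11.7, 12.01 and 9.92 CPM in SF. Its log2 ratio of 0.999 ± 0.15 (adjusted p = 0.00178) lay just under the fold threshold, so that it is counted among the genes past the adjusted p alone.

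*TM7SF2* and *LBR* both encode sterol reductases that can act after the lanosterol demethylase, and LBR also anchors chromatin to the nuclear envelope. *TM7SF2* (chromosome 29, 43317941 to 43322617) was at 7.10, 7.13, 6.98 and 5.52 CPM in the IMF clones, against 2.002, 1.20, 1.99 and 1.05 CPM in the SF clones (4.26-fold, log2 ratio 2.09 ± 0.25, adjusted p = 0.000645). *LBR* was at 25.2, 25.7, 23.4 and 25.3 CPM in IMF against 13.5, 21.6, 21.99 and 17.7 CPM in SF, so that the groups were separated by a small margin, with SF3 the highest SF clone. It did not pass the test (log2 ratio 0.41 ± 0.15, adjusted p = 0.0745), although its adjusted p was 0.0428 with DESeq2 and 0.0431 with scaling by total counts alone. That scaling shifted the median log2 ratio over all genes by 0.15, and *LBR* was at 0.55 there, or 0.40 relative to that shift. Per length, *LBR* was the more abundant of the pair in every clone. The ratio of *TM7SF2* to *LBR* in TPM was 0.647, 0.637, 0.685 and 0.502 in IMF1 to IMF4 and 0.341, 0.128, 0.208 and 0.136 in SF1 to SF4.

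The final steps move and reduce the double bonds of the sterol. *DHCR7*, which makes the last reduction of one branch of the route, was at 66.5, 67.1, 69.9 and 62.4 CPM in the IMF clones, against 27.6, 17.6, 17.9 and 25.6 CPM in the SF clones, where SF1 and SF4 were the higher pair (3.002-fold, log2 ratio 1.59 ± 0.16, adjusted p = 0.000246). *EBP*, the sterol isomerase, was at 11.8, 13.1, 12.1 and 11.5 CPM in IMF against 5.24, 5.81, 6.66 and 5.34 CPM in SF (2.10-fold, log2 ratio 1.07 ± 0.11, adjusted p = 0.000306). *SC5D*, the desaturase between EBP and DHCR7, was at 37.2, 41.3, 35.1 and 37.1 CPM in IMF against 21.5, 23.8, 21.95 and 27.5 CPM in SF, a 1.59-fold difference under the fold threshold (log2 ratio 0.67 ± 0.096, adjusted p = 0.00155). All 12 genes from squalene synthase onward were separated between the groups in the IMF direction, as 18.0% of all genes tested were, and 11 of them passed the adjusted p threshold.

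**Figure D2:**
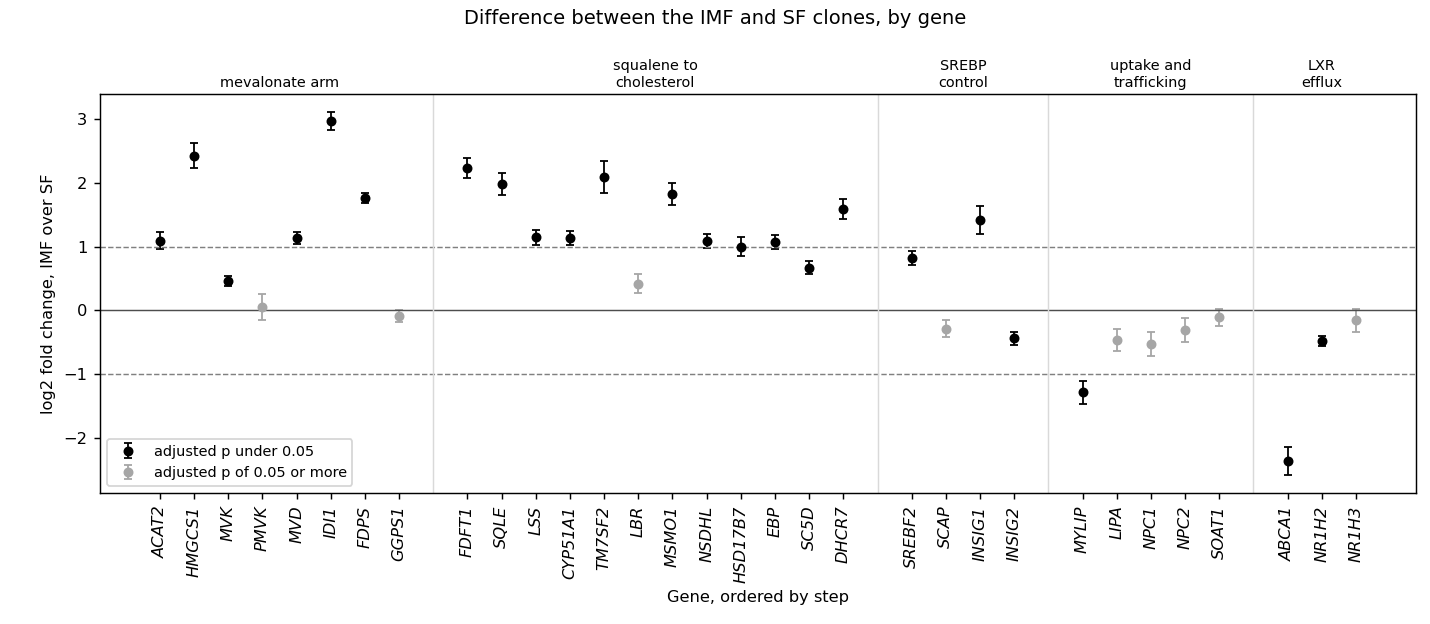
Log2 fold change of each gene, IMF over SF, with the standard error of the edgeR fit as a bar, ordered by step; black points had an adjusted p under 0.05, grey points did not, and dashed lines mark a log2 fold change of 1 in either direction. The 20 synthesis genes range from -0.09 (*GGPS1*) to 2.97 (*IDI1*), and *ABCA1* is the lowest of all at -2.36.

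Summed over the 20 synthesis genes, the transcript level per length was 559, 524, 565 and 474 TPM in IMF1 to IMF4 and 182, 203, 174 and 182 TPM in SF1 to SF4. The means were 531 ± 41.7 TPM and 185 ± 12.5 TPM (SD, n = 4 each), a ratio of 2.87. The mevalonate arm contributed 279.8 ± 22.0 TPM in IMF and 88.7 ± 5.15 TPM in SF. *IDI1* had the highest level of the arm in IMF, at 75.8 ± 5.46 TPM in the IMF clones and 9.48 ± 1.57 TPM in the SF clones (SD, n = 4 each), whereas *ACAT2* was the highest in SF, at 52.8 ± 4.58 TPM in the IMF clones and 24.3 ± 4.05 TPM in the SF clones. *FDPS* followed *ACAT2* in SF, at 15.1 ± 1.92 TPM. From squalene onward, the sums were 251 ± 19.8 TPM in IMF and 96.3 ± 8.67 TPM in SF. *SQLE* led in IMF (40.04 ± 2.47 TPM in the IMF clones and 9.99 ± 2.55 TPM in the SF clones), and *CYP51A1* led in SF (29.6 ± 2.86 TPM in the IMF clones and 13.2 ± 1.52 TPM in the SF clones), where *DHCR7* (10.7 ± 1.89 TPM), *SC5D* (10.5 ± 0.902 TPM) and *SQLE* followed, and these 3 differed by less than the SD of *SQLE*.

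**Figure D3:**
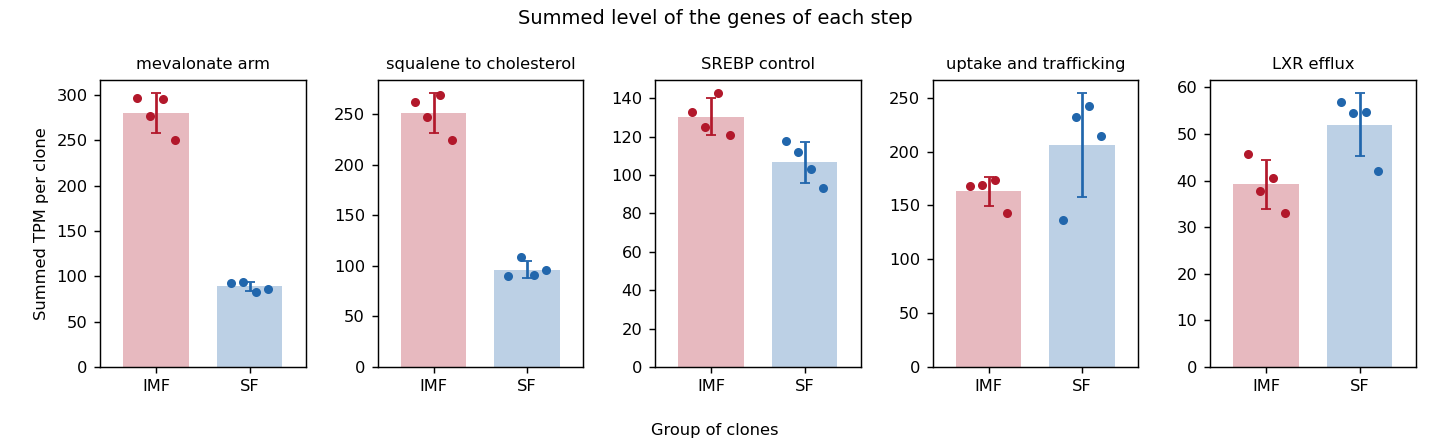
Summed TPM of the genes of each step in each clone (points), with the mean (bar) and SD (line) of the 4 IMF and the 4 SF clones. The sums of both synthesis steps range from 224.6 to 297 TPM over the IMF clones and from 83.1 to 109 TPM over the SF clones. Those of uptake and trafficking overlap between the groups, and so do those of LXR efflux.

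The SF clones were more spread in these genes than the IMF clones. The median SD of log2 CPM over the 20 synthesis genes was 0.08 between IMF clones and 0.27 between SF clones, against 0.15 and 0.29 over all genes tested. The SF clones had the larger spread in 30 of the 32 genes and in 64.8% of all genes tested. No SF clone was the highest throughout. Among the 17 synthesis genes higher in IMF, SF4 was the highest SF clone in 7, SF1 and SF2 in 4 each and SF3 in 2, and SF3 was the lowest in 9. Among the IMF clones, IMF4 was the lowest in 13 of the 17 and IMF2 the highest in 11. This order is by CPM, and the summed TPM of these genes was highest in IMF3 and in SF2.

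Of the 4 genes that control SREBP, 2 were higher in IMF, 1 was lower and 1 did not pass the test. *SREBF2* (chromosome 5, 112832407 to 112890177), which encodes SREBP-2 and is among its own targets, was at 179, 190.2, 186 and 183 CPM in the IMF clones, against 98.2, 109, 86.3 and 124 CPM in the SF clones. The groups did not overlap, and they differed by less than the fold threshold (1.77-fold, log2 ratio 0.82 ± 0.11, adjusted p = 0.00121). *SCAP*, the escort protein, was at 112, 117, 122 and 116 CPM in IMF against 183, 126, 144 and 118 CPM in SF, where SF1 was the highest of all clones and SF4 lay within the IMF range (log2 ratio -0.29 ± 0.13, adjusted p = 0.152).

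The INSIG genes, which encode the anchors that retain SCAP, differed in opposite directions. *INSIG1* (chromosome 4, 117125850 to 117138562), itself a target of SREBP, was at 47.7, 47.7, 49.5 and 47.5 CPM in the IMF clones, against 13.3, 26.9, 12.99 and 19.2 CPM in the SF clones, with SF2 the highest of its group (2.66-fold, log2 ratio 1.41 ± 0.22, adjusted p = 0.00239). *INSIG2*, which is not induced by SREBP in the same way, was at 24.995, 28.6, 26.2 and 25.5 CPM in IMF against 41.8, 31.1, 33.7 and 36.7 CPM in SF. It was 1.36-fold lower in IMF, with no overlap (log2 ratio -0.44 ± 0.10, adjusted p = 0.0135). The adjusted p of *INSIG2* was 0.0753 with scaling by total counts alone, which shifted the median log2 ratio over all genes by 0.15, and the gene stayed lower in IMF there (-0.29, or -0.44 relative to that shift). Per length, *INSIG1* was the more abundant of the pair in every IMF clone, at 1.10 to 1.26 times the TPM of *INSIG2*, and the less abundant in every SF clone, at 0.210 to 0.572 times.

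**Figure D4:**
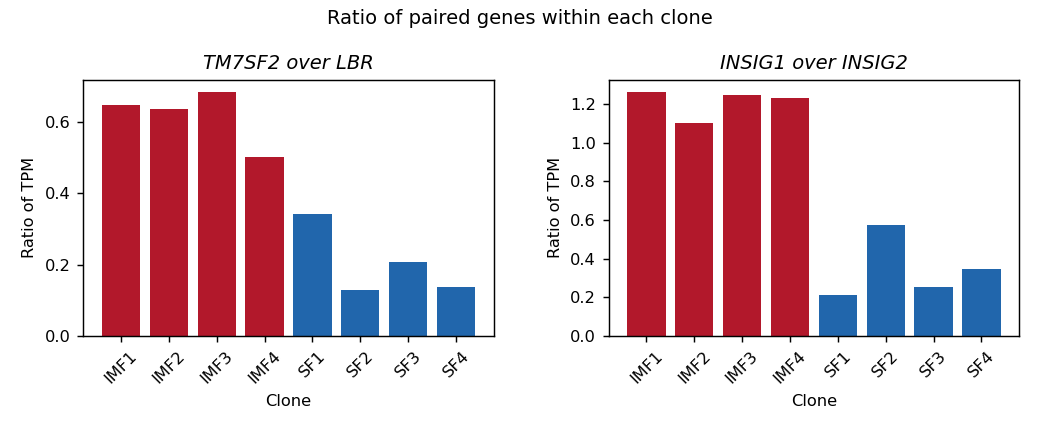
Ratio of TPM within each clone for *TM7SF2* over *LBR* and for *INSIG1* over *INSIG2* (red bars, IMF clones; blue bars, SF clones; 1 bar per clone). Both ratios are higher in each IMF clone than in each SF clone.

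Of the 5 genes of uptake and trafficking that were tested, 1 was lower in IMF and 4 did not pass the test. *MYLIP* (chromosome 23, 40992081 to 41012852) encodes a ubiquitin ligase that is induced by LXR and marks lipoprotein receptors for degradation. Its counts were low, at 68, 95, 53 and 61 in IMF1 to IMF4 and 124, 130, 227 and 117 in SF1 to SF4, or 3.26, 3.11, 2.40 and 2.90 CPM against 6.36, 6.51, 9.21 and 6.45 CPM. *MYLIP* was 2.44-fold lower in IMF, and SF3 was the highest clone (log2 ratio -1.29 ± 0.18, adjusted p = 0.00138). Among all genes tested, 14.1% had all 4 SF clones above all 4 IMF clones, as *MYLIP*, *INSIG2*, *ABCA1* and *NR1H2* did.

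The lysosomal genes release cholesterol from incoming lipoproteins and pass it on. *NPC2*, the soluble carrier of the lysosome, was the most abundant of the 32 genes per length, at 121 ± 11.9 TPM in the IMF clones and 148 ± 36.7 TPM in the SF clones (SD, n = 4 each). It was at 117, 131, 117 and 107 CPM in IMF against 96.2, 138, 168 and 186 CPM in SF (log2 ratio -0.32 ± 0.19, adjusted p = 0.262). SF1 thus lay under all IMF clones, and SF2, SF3 and SF4 lay above them. *NPC1*, its membrane partner, ranged from 46.5 to 52.3 CPM in IMF against 47.9 to 98.4 CPM in SF, and *LIPA*, the acid lipase, from 16.7 to 17.8 CPM against 17.2 to 30.9 CPM. In both genes SF1 was the only SF clone within the IMF range. Neither *NPC1* (log2 ratio -0.53 ± 0.19, adjusted p = 0.0717) nor *LIPA* (log2 ratio -0.47 ± 0.17, adjusted p = 0.0775) passed the test. Both passed with DESeq2 (adjusted p = 0.0310 and 0.0419) but not with limma-voom. Without SF1, *NPC1* (-0.69, adjusted p = 0.00515), *LIPA* (-0.60, adjusted p = 0.0129) and *NPC2* (-0.47, adjusted p = 0.0217) were lower in IMF, so that 7 of the 32 genes were lower in place of 4. Among all genes, 2268 were then lower in place of 2085. Both *NPC1* and *LIPA* overlap other genes in the annotation, *NPC1* with *RMC1* and *LIPA* with *IFIT2*, *IFIT3*, *IFIT5* and *LOC100139670*. Of these, *LOC100139670* (17.8 ± 0.763 CPM in IMF against 61.8 ± 15.1 CPM in SF, SD, n = 4 each, log2 ratio -1.80 ± 0.17, adjusted p = 0.000196) and *RMC1* (log2 ratio -0.32 ± 0.096, adjusted p = 0.0413) were lower in IMF and *IFIT5* was higher (log2 ratio 0.59 ± 0.16, adjusted p = 0.0277), and the share of reads from common bases counted for each gene is uncertain. *SOAT1*, which esterifies cholesterol for storage, ranged from 23.3 to 29.9 CPM in IMF against 22.1 to 33.0 CPM in SF (log2 ratio -0.11 ± 0.13, adjusted p = 0.609).

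Of the 3 efflux genes tested, 2 were lower in IMF. *ABCA1* (chromosome 8, 94600618 to 94737849), the pump that loads cholesterol onto lipid-poor apolipoproteins and a classical LXR target, was counted 56, 63, 51 and 47 times in IMF1 to IMF4 and 174, 245, 411 and 181 times in SF1 to SF4. The levels were 2.69, 2.06, 2.31 and 2.24 CPM in the IMF clones, against 8.93, 12.3, 16.7 and 9.97 CPM in the SF clones. *ABCA1* was thus 5.15-fold lower in IMF and had the lowest log2 fold change of the 32 genes (log2 ratio -2.36 ± 0.22, adjusted p = 0.000172). *NR1H2*, which encodes the widely expressed receptor LXR beta, was at 39.2, 34.3, 34.5 and 31.03 CPM in IMF against 50.3, 46.6, 49.99 and 46.9 CPM in SF, 1.39-fold lower in IMF without overlap (log2 ratio -0.48 ± 0.082, adjusted p = 0.00352). With scaling by total counts alone, *NR1H2* stayed lower in IMF with an adjusted p of 0.0558 (log2 ratio -0.33, or -0.48 relative to the shift of all genes by 0.15). *NR1H3*, which encodes LXR alpha, ranged from 12.1 to 15.0 CPM in IMF against 11.6 to 20.7 CPM in SF, with SF1 the highest (log2 ratio -0.16 ± 0.18, adjusted p = 0.576). Per length, *NR1H2* was the more abundant receptor in both groups, at 27.2 ± 4.17 TPM in the IMF clones and 37.3 ± 3.74 TPM in the SF clones, against 11.7 ± 1.28 TPM in the IMF clones and 12.9 ± 3.64 TPM in the SF clones for *NR1H3* (SD, n = 4 each).

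The 32 genes lay on 22 chromosomes. A test of whether the log2 ratio exceeded 1 in size, and not only 0, left 8 of the 15 genes higher past both thresholds (*HMGCS1*, *IDI1*, *FDPS*, *FDFT1*, *SQLE*, *TM7SF2*, *MSMO1* and *DHCR7*) and 1 of the 2 lower, *ABCA1*. Of the 18339 genes tested, 476 were higher and 155 lower by this test.

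Other genes of sterol and lipid supply were read from 6 lists, for which the background is again 14.4% higher and 11.4% lower among all genes tested. Of 13 genes of the branches that leave farnesyl diphosphate for prenylation, dolichol and ubiquinone, 1 was higher and 1 lower at an adjusted p under 0.05 (3 and 2 with DESeq2), with a median log2 fold change of 0.13. *PDSS1*, which makes the ubiquinone side chain, was at 8.68, 10.4, 9.47 and 9.42 CPM in IMF against 4.41, 4.70, 7.14 and 6.78 CPM in SF (log2 ratio 0.72 ± 0.18, adjusted p = 0.0197), and *ZMPSTE24*, a protease of prenylated proteins, was lower in IMF (log2 ratio -0.23 ± 0.067, adjusted p = 0.0382). Of 9 genes of SREBP processing and sterol-sensing degradation, 2 were lower and 7 did not pass the test, whereas 1 was higher and 3 were lower with DESeq2. The ubiquitin ligase *RNF145* was at 39.9 ± 1.22 CPM in IMF against 53.8 ± 3.52 CPM in SF (SD, n = 4 each, log2 ratio -0.43 ± 0.067, adjusted p = 0.00236). The SREBP protease *MBTPS2* was the other one (log2 ratio -0.40 ± 0.099, adjusted p = 0.0184), and both differed by less than the fold threshold. *SREBF1*, the gene of the related factor SREBP-1, did not pass the test (log2 ratio -0.10 ± 0.088, adjusted p = 0.442).

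Of 6 genes of lipoprotein receptors and their chaperone, 2 were higher, 2 were lower, and *LRP8* and *LRPAP1* did not pass the test. *VLDLR*, the very low density lipoprotein receptor, was at 36.3, 41.9, 36.1 and 38.6 CPM in the IMF clones, against 90.8, 105, 89.3 and 103 CPM in the SF clones (2.54-fold lower in IMF, log2 ratio -1.34 ± 0.086, adjusted p = 2.68e-05). *LRP1*, a large endocytic receptor of the same family, was at 2241 ± 119 CPM in IMF against 5295 ± 653 CPM in SF (SD, n = 4 each, log2 ratio -1.24 ± 0.13, adjusted p = 0.000281). The genes higher in IMF were *CD36* (log2 ratio 2.86 ± 0.32, adjusted p = 0.000492) and *SCARB1* (log2 ratio 0.81 ± 0.10, adjusted p = 0.000847), both scavenger receptors. Among 12 genes of sterol transfer, 2 were higher and 2 lower, shares near those of all genes tested, with *TSPO*, a protein of the outer mitochondrial membrane, lower in IMF (log2 ratio -1.05 ± 0.10, adjusted p = 0.000249) and *TMEM97*, a sterol-responsive membrane protein, higher (log2 ratio 0.48 ± 0.078, adjusted p = 0.00297). The others were *GRAMD1B*, which carries sterol from the plasma membrane inward, higher in IMF (log2 ratio 1.85 ± 0.58, adjusted p = 0.0466), and *STARD3*, a late endosomal sterol carrier, lower (log2 ratio -0.53 ± 0.12, adjusted p = 0.0151). Of 10 genes of ester hydrolysis, oxysterols and other LXR targets, 1 was higher and 2 were lower. *LPCAT3*, a phospholipid acyltransferase that LXR can induce, was higher in IMF (log2 ratio 0.58 ± 0.10, adjusted p = 0.00398), and *NCEH1*, a hydrolase of cholesteryl esters, was lower (log2 ratio -0.92 ± 0.17, adjusted p = 0.00507). *SMPDL3A*, a phosphodiesterase gene that LXR can induce, was the other one that was lower (log2 ratio -1.22 ± 0.36, adjusted p = 0.0360).

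Fatty acid synthesis and desaturation, which SREBP-1 drives, was the only one of these 6 lists in which most genes were higher in the IMF clones. Of its 13 genes, 9 were higher and 1 was lower at an adjusted p under 0.05, 7 of them with a log2 fold change of at least 1, and the median log2 fold change was 1.00. *SCD*, the stearoyl-CoA desaturase, was at 161, 168, 177 and 169 CPM in IMF1 to IMF4 and 15.6, 26.1, 29.4 and 23.6 CPM in SF1 to SF4 (7.11-fold, log2 ratio 2.83 ± 0.18, adjusted p = 2.76e-05). *FADS2*, a desaturase of polyunsaturated fatty acids, was counted 1595, 2341, 1609 and 1513 times in IMF and 24, 52, 15 and 43 times in SF (log2 ratio 5.47 ± 0.37, adjusted p = 3.56e-05). The acetyl-CoA synthetase *ACSS2* (log2 ratio 3.13 ± 0.38, adjusted p = 0.000644) and *ACLY*, which makes acetyl-CoA from citrate (log2 ratio 0.80 ± 0.095, adjusted p = 0.000609), supply the substrate of both pathways and were higher as well. *MID1IP1*, an activator of fatty acid synthesis, was the gene that was lower (log2 ratio -0.37 ± 0.11, adjusted p = 0.0420).

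**Figure D5:**
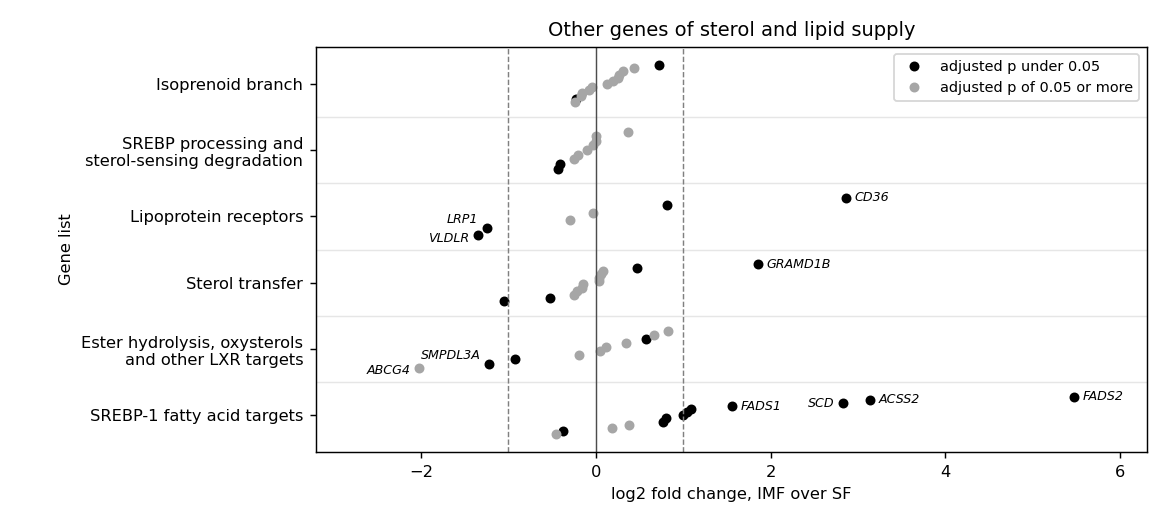
Log2 fold change, IMF over SF, of the genes of 6 further lists, 1 point per gene (black, adjusted p under 0.05; grey, 0.05 or more), with the genes furthest from 0 named and dashed lines at a log2 fold change of 1 in either direction. The SREBP-1 fatty acid targets extend furthest to the right, up to *FADS2* at 5.47, and 5 genes lie to the left of -1, *ABCG4*, *VLDLR*, *SMPDL3A*, *LRP1* and *TSPO*, of which *ABCG4* did not pass the test.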

How the data were processed

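Poly(A) RNA of 8 clones was sequenced in paired-end reads. Reads were trimmed by the authors (Trimmomatic 0.39), mapped to ARS-UCD2.0 (HISAT2 in the study's methods, STAR 2.7.11a in the submitters' processing notes), counted on genes with featureCounts 2.0.2 and deposited as raw counts without normalization. The study's methods describe the libraries as non-stranded and the labels describe a dUTP protocol, so reads of overlapping genes may have been shared. Columns of the authors' own means and DESeq2 results were not used. The row without a gene name (0.0148% to 0.0209% of counts) was left out, 17 genes are recorded as calendar dates, and 532 named genes under a total of 20 counts were not tested.

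Counts were normalized by TMM and tested with edgeR 4.0.16 (R 4.3.3; two-sided quasi-likelihood test, Benjamini-Hochberg adjustment over 18339 genes, prior count 0.125). Standard errors came from the same fit. TPM was computed from the counts and the deposited gene lengths. Tables and figures were made in Python 3.11.15. The scripts, with DESeq2 1.42.0 and limma 3.58.1 (voom) as other tools, were tested on simulated data.

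The members and gene lists were chosen with earlier results of these data known, and the paired ratios after the values were seen. Named genes were every member, and in each further list the 2 genes with the lowest adjusted p (1 listed gene is not reported here); *SREBF1*, *GRAMD1B*, *STARD3*, *SMPDL3A*, *ABCG4*, *LRP8*, *LRPAP1*, *CD36*, *SCARB1*, *ACSS2*, *ACLY* and *MID1IP1* were chosen after their values were seen. All 32 members were found by symbol among the RefSeq genes of that assembly, which gave the coordinates. P-values measure the spread between clones, which the labels number within each group. Alternatives were RLE, upper-quartile or total-count scaling, no filter, at least 10 counts in at least 4 clones, DESeq2, limma-voom, a test of whether the log2 ratio exceeded 1 in size (glmTreat), robust dispersion, a block for the clone number, and each clone left out in turn. Promoter and protein sequences were not used here.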

Additional observations from a re-analysis of the deposited data

Results flagged for a closer look

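In 6 of 88 groups of 4 clones, 1 clone stood further from the other 3 than the 95% critical value of Dixon's ratio of gap to range, a limit that chance passes in about 1 of 20 groups. IMF2 was the highest IMF clone for *FDPS* (76.7 CPM, the others 71.5 to 71.6) and for *RNF145* (41.7 CPM, the others 39.1 to 39.3). IMF4 was the lowest for *TM7SF2* (5.52 CPM, the others 6.98 to 7.13) and for *HSD17B7* (17.3 CPM, the others 21.9 to 22.2). IMF3 was the highest for *INSIG1* (49.55 CPM, the others 47.5 to 47.7). SF3 was the highest SF clone for *MYLIP* (9.21 CPM, the others 6.36 to 6.51).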

How the results depend on the processing

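The 19 genes higher in IMF at an adjusted p under 0.05 numbered 19 in each of the 8 fits without 1 clone, and the 15 past both thresholds numbered 15 to 16. The 4 lower genes numbered 2 with total counts alone and 4 to 7 without 1 clone (7 without SF1), and the 2 past both thresholds numbered 2 in each of these 8 fits. When the log2 ratio was tested for exceeding 1 in size (glmTreat), 8 higher and 1 lower remained, and 476 higher and 155 lower of all genes. Among all genes at an adjusted p under 0.05, 1746 to 2844 were higher and 1517 to 2268 lower without 1 clone (1746 without IMF2), and 1189 were lower with total counts alone. With total counts alone the median log2 fold change moved to 1.06 for the 32 genes, 1.27 for the mevalonate arm, 1.29 from squalene onward, 0.42 for SREBP control and 0.12 for all genes, which turned the last from -0.03. The median of all genes was -0.064 with no filter, -0.051 with at least 10 counts in at least 4 clones and -0.062 to -0.017 without 1 clone. Of all genes past both thresholds, 54.2% were higher in IMF, 66.7% with total counts alone, 75.4% with glmTreat, 48.9% with DESeq2 and 49.2% without IMF1. Signs turned for genes that passed in no fit: *PMVK* (-0.090 to 0.20 without 1 clone), *GGPS1* (0.055) and *SOAT1* (0.033) with total counts alone, and *NR1H3* (-0.26 to 0.042 without 1 clone). Total counts alone shifted the median of all genes by 0.15, and relative to that shift *GGPS1* was at -0.093 and *SOAT1* at -0.11. The causes were not tested. Deviations of same-numbered clones correlated at 0.05 on average (4 pairs, -0.01 to 0.14), against -0.02 for other-numbered clones (12 pairs, -0.11 to 0.11). So few weak correlations cannot tell whether same-numbered clones came from the same animal. With the replicate block, 19 of the 32 genes were higher and 3 lower, *INSIG2* no longer passing (adjusted p = 0.0535). Medians were not recomputed for glmTreat or robust dispersion. *TM7SF2* and *MYLIP* had the lowest total counts of the 32 genes.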
